A study of Mus musculus with 24 samples.

Results

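H3K9ac, the acetylation of lysine 9 of histone H3, was examined at the promoters of 9 genes that encode the acetyltransferases KAT2a and KAT2b and 7 of their partner subunits. The genes were taken as a list by name, with no threshold on a measured value: Kat2a, Kat2b, Tada1, Tada2a, Tada2b, Tada3, Taf5l, Taf6l and Supt7l. They were 9 of 21755 protein-coding genes on chromosomes 1 to 19 and X. All 9 had a promoter peak in every library and thereby passed the filter of the tests, which 10777 genes passed. The data came from 4T1 cells, a mouse mammary carcinoma line, grown as spheroids and collected on day 5. The study asked how loss of CPT1a, which carries long-chain fatty acids toward mitochondrial oxidation, or loss of KAT2a alters acetylation in the presence of palmitate, and what acetate does in the former case. Chromatin was profiled by ChIPmentation, in which the transposase Tn5 tags the immunoprecipitated fragments while they sit on the beads. Of the 24 samples, the 12 H3K9ac libraries were used, 3 in each of 4 groups, and the 12 input libraries were not analysed here.

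The scramble group carried a non-targeting guide, the CPT1a KO group a guide against Cpt1a and the KAT2a KO group a guide against Kat2a. Per the labels these 3 groups had 75 µM palmitate in the medium. The fourth group, CPT1a KO + acetate, had 5 mM acetate, and its label does not mention palmitate, though the study's own legend places the acetate spheroids in palmitate medium. According to the methods, all lines were derived from a 4T1 parent with doxycycline-inducible Cas9, received the guide by lentivirus and were selected with puromycin. Guides to 2 exons of each target existed, and the labels do not say which of them a library carried. The peak lists do not show an edit, so the knockouts were not checked here. Nothing in the labels says that replicates came from separate cultures, so the p-values measure only the spread between these libraries.

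KAT2a (GCN5) and KAT2b (PCAF) are paralogous acetyltransferases that transfer acetyl groups from acetyl-CoA to lysines of histone H3, lysine 9 among them, and to other proteins. Neither enzyme works alone in the cell. Each sits, one at a time, in a module with an adaptor of the TADA2 family, TADA3 and SGF29, and this module docks on the coactivator SAGA through TADA2B or on the smaller complex ATAC through TADA2A. The core of SAGA is built of subunits with histone folds and of TAF-like proteins, among them TADA1, SUPT7L, TAF5L and TAF6L, and SAGA also holds a deubiquitinase module. In mammary carcinoma cells, as in other proliferating cells, genes for such coactivators are broadly active, and H3K9ac marks the promoters of active genes.

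The promoter sequences of Kat2a, Kat2b, Tada2a, Taf5l and Supt7l are shown first. Each runs from 250 bases before to 50 bases after a start in RefSeq (GRCm38.p6) and reads 5′ to 3′ on the strand of the gene. RefSeq windows were found for 8 of the 9 members, not for Tada1. Kat2b and Taf5l each have a second RefSeq start, whose windows are not printed. Capitals mark matches, on either strand, to one of 7 words searched: CCAAT (the CCAAT box), GGGCGG (the GC box of SP factors), CACGTG (an E-box), CCGGAAG (bound by ETS factors), GCGCATG (part of the NRF1 motif), AAGATGG (bound by YY1) and TGACGT (part of the CREB motif). The Kat2a window is chr11:100712418-100712717 (minus strand), that of Kat2b chr17:53566721-53567020 (plus strand), that of Tada2a chr11:84129519-84129818 (minus strand), that of Taf5l chr8:124021348-124021647 (minus strand) and that of Supt7l chr5:31526713-31527012 (minus strand).
Kat2a: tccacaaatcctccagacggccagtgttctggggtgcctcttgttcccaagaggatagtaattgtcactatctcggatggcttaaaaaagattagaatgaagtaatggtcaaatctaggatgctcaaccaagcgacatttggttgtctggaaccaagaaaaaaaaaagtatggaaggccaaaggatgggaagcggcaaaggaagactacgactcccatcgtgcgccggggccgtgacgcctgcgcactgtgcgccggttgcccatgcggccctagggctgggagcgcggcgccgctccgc
Kat2b: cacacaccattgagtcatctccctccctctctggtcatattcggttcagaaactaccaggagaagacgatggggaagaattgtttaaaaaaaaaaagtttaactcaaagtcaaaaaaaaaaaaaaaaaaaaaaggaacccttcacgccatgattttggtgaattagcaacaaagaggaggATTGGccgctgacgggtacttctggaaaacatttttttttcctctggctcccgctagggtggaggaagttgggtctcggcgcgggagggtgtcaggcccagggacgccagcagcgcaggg
Tada2a: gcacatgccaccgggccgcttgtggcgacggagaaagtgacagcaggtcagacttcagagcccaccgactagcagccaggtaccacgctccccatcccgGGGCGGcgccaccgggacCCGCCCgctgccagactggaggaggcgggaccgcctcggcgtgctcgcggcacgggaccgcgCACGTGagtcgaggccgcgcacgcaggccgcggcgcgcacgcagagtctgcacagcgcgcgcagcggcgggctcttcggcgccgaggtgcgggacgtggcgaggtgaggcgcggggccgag
Taf5l: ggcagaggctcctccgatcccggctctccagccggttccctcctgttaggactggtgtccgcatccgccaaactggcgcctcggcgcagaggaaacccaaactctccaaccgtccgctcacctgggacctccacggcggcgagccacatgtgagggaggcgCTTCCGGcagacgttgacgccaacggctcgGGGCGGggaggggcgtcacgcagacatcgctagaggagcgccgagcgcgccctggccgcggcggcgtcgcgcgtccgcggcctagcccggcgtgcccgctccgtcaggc
Supt7l: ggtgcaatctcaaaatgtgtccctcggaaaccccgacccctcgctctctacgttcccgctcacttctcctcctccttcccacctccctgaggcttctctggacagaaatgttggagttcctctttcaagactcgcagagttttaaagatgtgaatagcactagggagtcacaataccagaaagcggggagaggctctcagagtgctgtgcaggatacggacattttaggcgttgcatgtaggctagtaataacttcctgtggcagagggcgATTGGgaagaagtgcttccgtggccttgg

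The paralogs Kat2a and Kat2b differed in this window. The Kat2a window held none of the 7 words, and the Kat2b window held 1 CCAAT (read as ATTGG on the strand shown), a word present in 38.2% of 21262 promoter windows of coding genes. The Tada2a window, with 75% G and C, held GGGCGG at 2 places and CACGTG at 1, words present in 46.2% and 7.84% of the windows. The Taf5l window held CCGGAAG (11.6% of windows) and GGGCGG, its second window (chr8:124021007-124021306) held GGGCGG at 5 places and CACGTG at 1, and the Supt7l window held 1 CCAAT. The second Kat2b window held none of the words. No matches overlapped in the 5 windows shown. The words of NRF1, YY1 and CREB were in 4.8%, 6.24% and 8.49% of all windows and in none of the members' windows. A match describes letters and is not evidence of binding, and a missing word says only that these letters are not in the window.

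A promoter was the region within 1 kb of any annotated start of a gene in GENCODE vM21, and its strongest peak was the overlapping peak with the highest fold enrichment, the ratio of ChIP signal to local background that the authors' peak caller gives. Fold enrichment is not scaled between libraries. It was therefore turned into a rank percentile within each library, from 0 for the weakest to 100 for the strongest of the 10777 promoters. A second measure was the width of that peak, compared between groups as log2 width minus the median of the library. A call is an adjusted p below 0.05 in limma, fitted to all 10777 genes and all 12 libraries with Benjamini-Hochberg adjustment. With 3 libraries against 3, the exact permutation test has 20 assignments and cannot give a p below 0.1.

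The libraries were not alike. They held 16212 to 34370 peaks. A calling depth, the most frequent background coverage, was recovered from the peak values under the formulas of the peak caller MACS2. It was 1.87 to 2.52 in scramble, 0.554 to 1.70 in CPT1a KO, 0.660 to 1.91 in CPT1a KO + acetate and 1.02 to 1.81 in KAT2a KO. Whether it equals the coverage of the H3K9ac library is not known, since use of the inputs is not given. In scramble, 43.5% to 55.6% of the promoters held more than 1 peak, against 17% to 37.1% in the other libraries. The principal start lay inside a peak for 58.3% to 77.5% of genes in scramble and for 79.2% to 96.7% elsewhere. So depth and the splitting of peaks moved with the groups, and their part in the results below was not tested except where a value is given. Of 8 epithelial markers, 6 had a promoter peak in all 12 libraries, 1 (Krt5) in none and Krt14 in 3. The leukocyte markers Ptprc and Cd3e and all 3 endothelial markers had none, while Cd14 had a peak in 12, Cd68 in 2 and the fibroblast gene Col1a1 in 11 libraries.

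Kat2a in CPT1a KO against scramble had the largest single rank difference of the 9 genes over the 4 comparisons (39.9 points). In each other comparison another member differed more. These were Taf5l (-37.6) in KAT2a KO, Kat2b (31.1) in acetate against scramble and Supt7l (-31.2) in acetate against CPT1a KO. The Kat2a promoter was among the weakest in scramble and stood higher in all other libraries. Kat2a lies on chromosome 11 at 100704746 to 100712465 (mm10, minus strand, ENSMUSG00000020918). Its rank percentile was 6.04, 8.06 and 6.46 in the 3 scramble libraries. It was 35.7, 43.6 and 60.9 in CPT1a KO, 25.9, 28.4 and 29.5 in CPT1a KO + acetate, and 42.4, 13.1 and 30.3 in KAT2a KO. Thus the 3 scramble values lay below all other 9 without overlap, and the acetate values lay below those of CPT1a KO. No other member had its 3 scramble values below the other 9, as 4.51% of all tested genes did.

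In CPT1a KO, Kat2a rose to a mean rank of 46.7 ± 12.9 (SD, n = 3) from 6.85 ± 1.07 in scramble. The difference of 39.9 percentile points (SE 7.79) passed the test (limma, adjusted p = 0.00686), and the exact permutation p was 0.1, the smallest possible. With calling depth as a covariate the difference was 32.6 and the adjusted p 0.0615, so the call was lost. It was 32.6 as well, with an adjusted p of 0.0420, when libraries with a calling depth of at least 1.4 were used alone. In CPT1a KO + acetate the mean was 27.9 ± 1.83, which was 21.0 points above scramble (SE 7.79, adjusted p = 0.127) and 18.8 points below CPT1a KO (SE 7.79, adjusted p = 0.488). In KAT2a KO the mean was 28.6 ± 14.7, 21.7 points above scramble (SE 7.79, adjusted p = 0.127). The last 3 differences did not pass the test although none of the groups overlapped.

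The rank of Kat2a reflected its fold enrichment within each list. In scramble the fold enrichment of its peak was 8.15, 9.01 and 7.5, where the median promoter of the same libraries had 18.7 to 19.4. In CPT1a KO the peak had 23.3, 29.5 and 20.6, beside library medians of 27.2, 31.4 and 18.5. The summit lay in the first coding exon in all 12 libraries, 180 to 326 bp downstream of the principal start. Peak width at Kat2a was 2421, 1662 and 1418 bp in scramble and 601 to 1529 bp in the other 9 libraries. On the relative log2 scale the peak was 0.56 narrower than scramble in both CPT1a KO (adjusted p = 0.0885) and KAT2a KO (adjusted p = 0.0962), neither of them a call.

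Kat2b, the paralog with the same catalytic activity, spread more widely among the scramble libraries. It lies on chromosome 17 at 53566861 to 53672720 (plus strand, ENSMUSG00000000708). Its rank percentile was 37.5, 7.70 and 28.2 in scramble, 62.8, 29.4 and 75.2 in CPT1a KO, 48.9, 56.3 and 61.3 in CPT1a KO + acetate, and 41.8, 41.6 and 48.4 in KAT2a KO. The values of the acetate and KAT2a KO groups all lay above those of scramble, and CPT1a KO overlapped it in 1 library. Mean differences from scramble were 31.4 points in CPT1a KO (SE 11.9, adjusted p = 0.107), 31.1 in CPT1a KO + acetate (adjusted p = 0.139) and 19.5 in KAT2a KO (adjusted p = 0.372), none of them a call. Acetate and CPT1a KO differed by -0.29 points (SE 11.9). The window held 1 Kat2b peak in every library, 2039 to 4407 bp wide, and in several libraries further peaks followed it downstream. Its relative width in CPT1a KO differed from scramble by -0.32 log2 units (adjusted p = 0.209), and by 0.44 when peaks within 500 bp were merged. The summit lay 442 to 838 bp downstream of the start, in the first coding exon in 5 libraries and in intron 1 in 7.

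**Figure D1:**
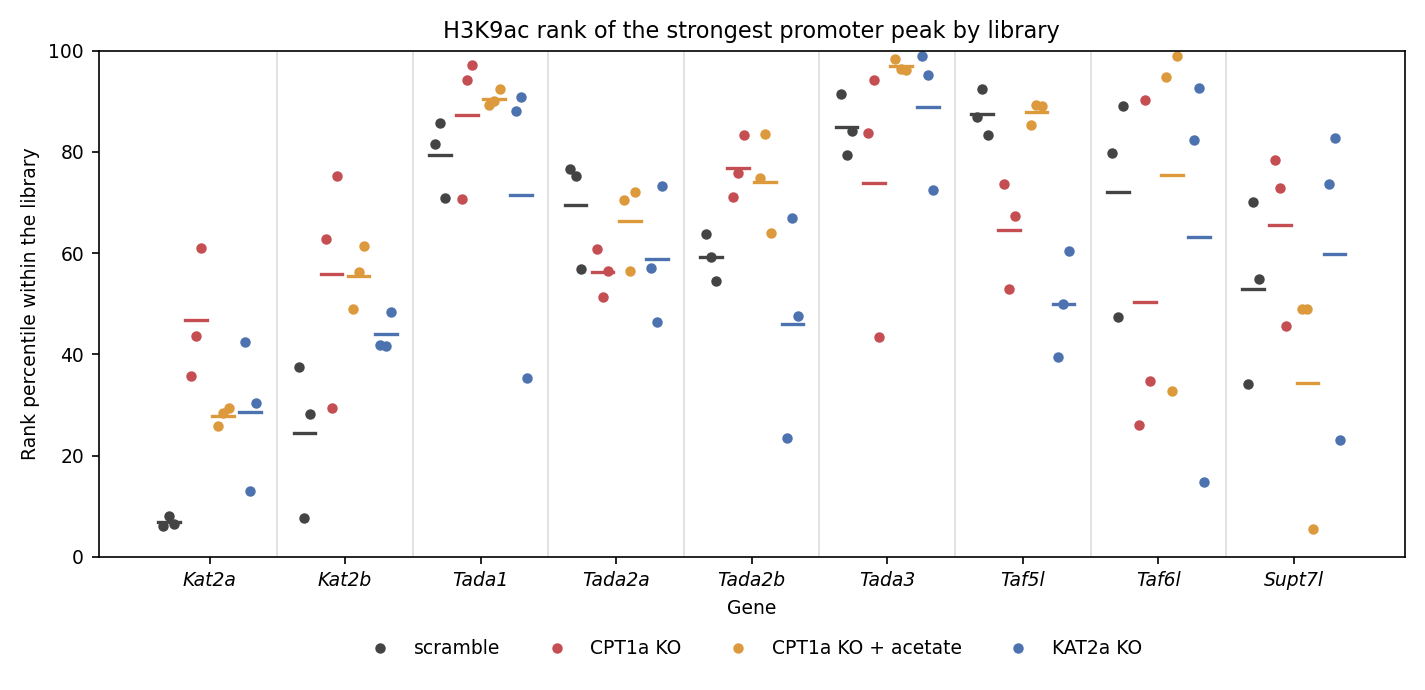
Rank percentile of the strongest promoter peak (y axis, 0 to 100 within each library) for the 9 genes in each of the 12 libraries; points are libraries, bars are group means and colours are the 4 groups. The 3 scramble points of Kat2a lie between 6.04 and 8.06, below its other 9, while the points of Taf6l spread from 14.8 to 98.9.

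Over the 12 libraries, the median rank of the adaptors was 92.8 for Tada3, 65.5 for Tada2b and 58.9 for Tada2a, and that of the enzymes was 28.9 for Kat2a and 45.1 for Kat2b. The order varied between libraries, and none of the 3 adaptors passed the test on ranks in any comparison. Tada3, common to SAGA and ATAC (chromosome 6, 113366025 to 113377883, minus strand, ENSMUSG00000048930), had the highest rank of the 9 genes in 6 of the 12 libraries. Its rank was 91.4, 79.5 and 84.1 in scramble, 83.7, 94.2 and 43.5 in CPT1a KO, 98.4, 96.4 and 96.3 in CPT1a KO + acetate, and 98.9, 95.2 and 72.5 in KAT2a KO. The low value of 43.5 came from the shallowest library. The acetate values lay above those of both scramble and CPT1a KO, by 12.05 (SE 10.8, adjusted p = 0.548) and 23.2 points (SE 10.8, adjusted p = 0.538). The summit was 509 to 866 bp upstream of the start of Tada3, and the peak also covered the start of Arpc4, which runs the other way from 232 bp away, in all 12 libraries. H3K9ac of the 2 genes cannot be separated there.

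Tada2b, the adaptor particular to SAGA (chromosome 5, 36473670 to 36484285, minus strand, ENSMUSG00000029196), had ranks of 63.8, 59.3 and 54.6 in scramble, 71.2, 75.9 and 83.4 in CPT1a KO, 74.8, 83.5 and 64.0 in CPT1a KO + acetate, and 23.4, 66.9 and 47.5 in KAT2a KO. The CPT1a KO and acetate values lay above scramble, by 17.6 (SE 11.3, adjusted p = 0.334) and 14.9 points (adjusted p = 0.471). In KAT2a KO the values straddled those of scramble, with a difference of -13.3 points (adjusted p = 0.536). The promoter held 2 peaks in every library, and the start lay between them in 10 of the 12.

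Tada2a, the ATAC adaptor (chromosome 11, 84078920 to 84129600, minus strand, ENSMUSG00000018651), had ranks in the middle of the scale, from 46.4 to 76.7, that overlapped between groups in every comparison. Its peak width was where it differed. The peak was 1298, 1176 and 1151 bp wide in scramble. It measured 1729, 1666 and 1433 bp in CPT1a KO, 1758, 1541 and 1935 bp in CPT1a KO + acetate, and 1800, 1883 and 1633 bp in KAT2a KO. All 3 scramble peaks were narrower than the other 9, also relative to their libraries, an arrangement found for 6.70% of all genes. The relative width was greater than in scramble by 0.79 log2 units in CPT1a KO (SE 0.14, adjusted p = 0.00443), 0.77 in CPT1a KO + acetate (SE 0.14, adjusted p = 0.00657) and 0.70 in KAT2a KO (SE 0.14, adjusted p = 0.00942). The acetate group did not differ detectably from CPT1a KO (-0.01, SE 0.14).

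This width difference at Tada2a was one of how many peaks the promoter was cut into. In the scramble libraries the strongest peak began 73 to 136 bp downstream of the start and a second peak ended 124 to 216 bp upstream of it, so the start lay in a gap. In the other 9 libraries 1 peak spanned the start, and the start of Acaca, 72 bp away on the other strand, lay in the same peak. When peaks within 500 bp of each other were merged, the differences from scramble became -0.04 (adjusted p = 0.809), -0.14 (adjusted p = 0.372) and -0.13 (adjusted p = 0.388) in CPT1a KO, KAT2a KO and CPT1a KO + acetate. The promoter bases covered by any peak differed by 0.04, 0.03 and 0.06 log2 units in the same order, and none of these was a call.

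**Figure D2:**
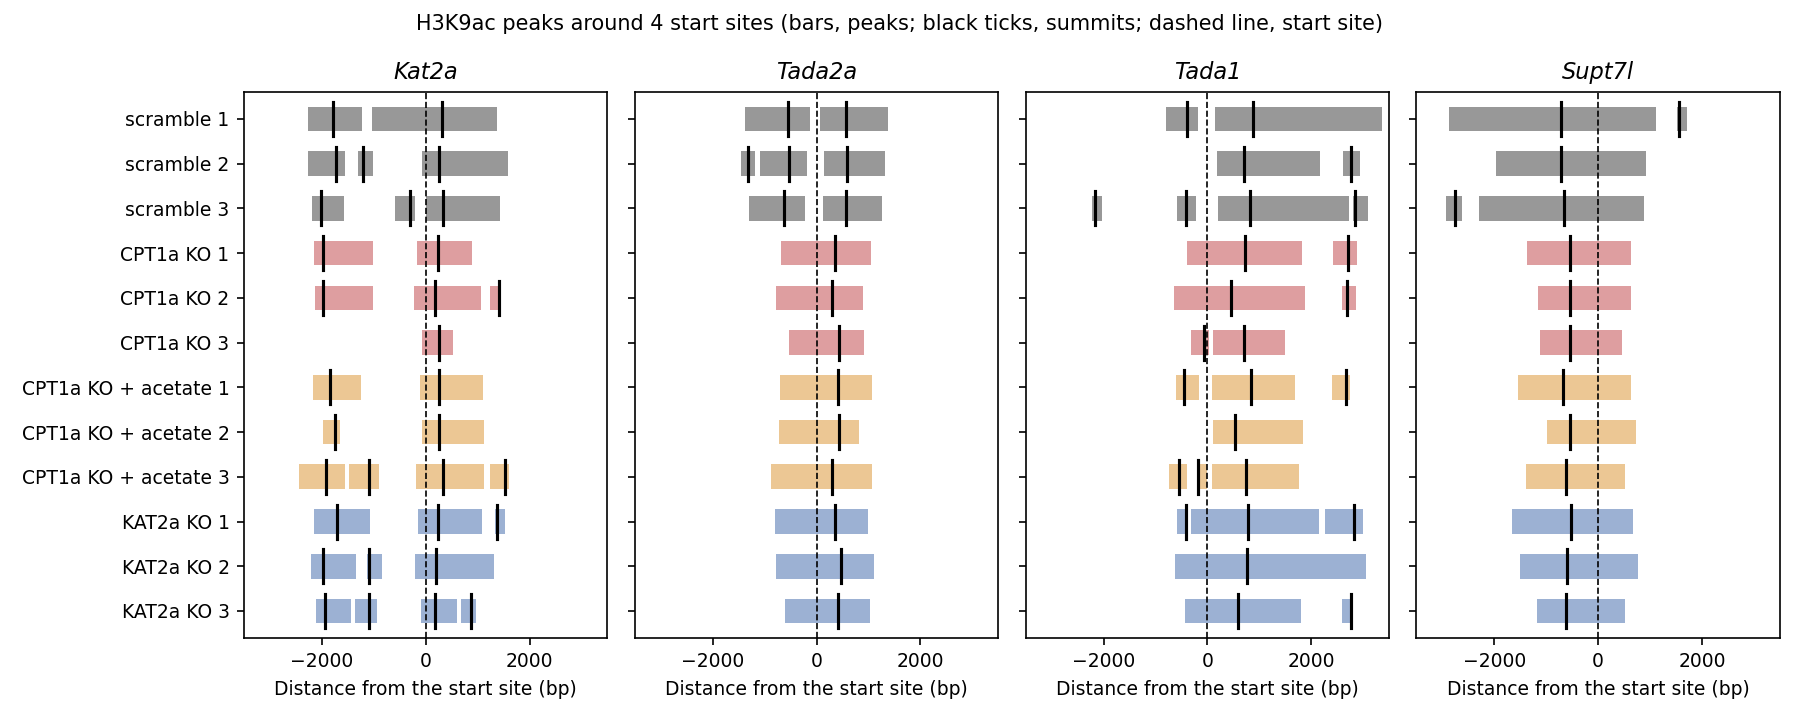
Extent of the H3K9ac peaks at Kat2a, Tada2a, Tada1 and Supt7l in the 12 libraries (one row each, coloured by group); the x axis is the distance from the principal start in bp, positive downstream, horizontal bars are peaks and marks are summits. At Tada2a the scramble rows show a gap over the start, and the other 9 rows show 1 peak across it.

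Of the 4 core subunits of SAGA, Taf5l changed in rank. TAF5L is a WD40-repeat protein of the core, and its gene lies on chromosome 8 at 123996318 to 124021397 (minus strand, ENSMUSG00000038697). Its rank percentile was 87.0, 92.4 and 83.3 in scramble, 73.6, 53.0 and 67.3 in CPT1a KO, 85.3, 89.3 and 89.2 in CPT1a KO + acetate, and 39.5, 50.04 and 60.3 in KAT2a KO. Scramble and the acetate group overlapped at the top, CPT1a KO lay below both, and the KAT2a KO values were low in all 3 libraries. In KAT2a KO the mean of 49.97 ± 10.4 was 37.6 points below the scramble mean of 87.6 ± 4.57 (SE 8.89, limma adjusted p = 0.0296; exact permutation p = 0.1). In CPT1a KO the difference was -22.9 points (SE 8.89, adjusted p = 0.114), and acetate stood 23.3 points above CPT1a KO (SE 8.89, adjusted p = 0.444), neither a call. The KAT2a KO call was kept in 1 of 6 fits that left out 1 library, the one without KAT2a KO replicate 3, and the adjusted p over those fits ran from 0.040 to 0.0933 with differences of -42.8 to -32.4. It was also lost with calling depth as a covariate (-40.0 points, SE 9.91, adjusted p = 0.0621).

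The Taf5l peak spans the start of Urb2, 111 bp away on the opposite strand, in all 12 libraries, so the values belong to both promoters. The summit lay in intron 1 of Taf5l, 661 to 1026 bp downstream of its start, in 5 libraries, and 268 to 716 bp upstream, on the side of Urb2, in 7. It was upstream in all 3 KAT2a KO libraries and downstream in 2 of 3 scramble libraries. Peak width was 2885 to 5605 bp, and relative width differed between groups by at most 0.13 log2 units in size (adjusted p of at least 0.659).

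Supt7l, a histone-fold subunit (chromosome 5, 31514564 to 31527807, minus strand, ENSMUSG00000053134), had a narrower peak outside scramble. Its width was 3989, 2893 and 3182 bp in scramble, 2003, 1810 and 1593 bp in CPT1a KO, 2180, 1719 and 1914 bp in CPT1a KO + acetate, and 2334, 2270 and 1691 bp in KAT2a KO. Relative to their libraries, the 3 scramble widths lay above all other 9, as did those of Taf6l and of 9.33% of all genes. Relative width fell by 0.51 log2 units in CPT1a KO (SE 0.13, adjusted p = 0.0194), by 0.53 in KAT2a KO (adjusted p = 0.0219) and by 0.54 in CPT1a KO + acetate (adjusted p = 0.0222). With merged peaks the first 2 calls were lost (-0.34 and -0.36, adjusted p = 0.0570 and 0.0508) and the third was kept (-0.44, adjusted p = 0.0256). Each call held in only 2 or 3 of 6 fits without 1 library. The ranks of Supt7l ran from 5.45, in acetate replicate 3, to 82.7 and passed no test. Its peak also covered the start of Slc4a1ap, 222 bp away, in all 12 libraries, and the summit lay 527 to 724 bp upstream of Supt7l.

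Tada1, the SAGA core adaptor (chromosome 1, 166379097 to 166393621, plus strand, ENSMUSG00000026563), ranked high in most libraries. Its rank was 81.5, 85.8 and 71.0 in scramble, 70.7, 94.2 and 97.2 in CPT1a KO, 89.3, 90.0 and 92.4 in CPT1a KO + acetate, and 88.0, 90.9 and 35.3 in KAT2a KO. The acetate values lay above scramble by 11.1 points (SE 12.2, adjusted p = 0.637), and 1 KAT2a KO library lay far below the other two. The summit was in intron 1, 458 to 881 bp downstream of the start, in all 12 libraries. The start itself lay outside a peak in all scramble and all acetate libraries and inside one in the 6 others.

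Taf6l, whose product is a histone-fold relative of TAF6 (chromosome 19, 8774487 to 8786417, minus strand, ENSMUSG00000003680), gave values that depended on which of its 10 annotated starts was meant. With all starts, its rank was 79.8, 47.5 and 89.0 in scramble, 26.1, 90.3 and 34.7 in CPT1a KO, 94.8, 32.8 and 98.9 in CPT1a KO + acetate, and 82.4, 92.6 and 14.8 in KAT2a KO. The high values marked the starts of other genes. In 8 of the 12 libraries, all 3 of scramble among them, the strongest peak had its summit 11161 to 12369 bp downstream of the principal start and covered a start of Tmem179b, 11849 bp away. In all 3 scramble libraries this peak also covered starts of Nxf1 and Tmem223, and in KAT2a KO replicates 1 and 2 a start of Tmem223. In all 8 libraries it came within 1 kb of the last Taf6l start, that of a retained-intron transcript at 9354 bp, and covered that base itself in 2 libraries. In the other 4 (CPT1a KO replicates 1 and 3, acetate replicate 2 and KAT2a KO replicate 3) the strongest peak was at the principal start.

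With the principal start alone, the Taf6l rank was 12.3, 38.9 and 40.2 in scramble, 25.9, 13.05 and 35.0 in CPT1a KO, 25.6, 32.9 and 30.0 in CPT1a KO + acetate, and 20.1, 20.5 and 14.7 in KAT2a KO. The groups overlapped, and differences from scramble were -5.84, -12.0 and -0.98 points in CPT1a KO, KAT2a KO and CPT1a KO + acetate, with an adjusted p of at least 0.398. Width with all starts fell by 1.83 log2 units in CPT1a KO (SE 0.43, adjusted p = 0.0178), from 6798 to 8730 bp in scramble to 924 to 2766 bp. With calling depth as a covariate it was -1.09 and no longer a call (adjusted p = 0.0686). The switch between peaks entered this value, and at the principal start alone the difference was -0.59 (SE 0.16, adjusted p = 0.0266). There KAT2a KO was narrower than scramble as well (-0.71, SE 0.16, adjusted p = 0.0176), and CPT1a KO + acetate had -0.48 (adjusted p = 0.0677). The choice of the principal start alone was made after the data were seen.

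**Figure D3:**
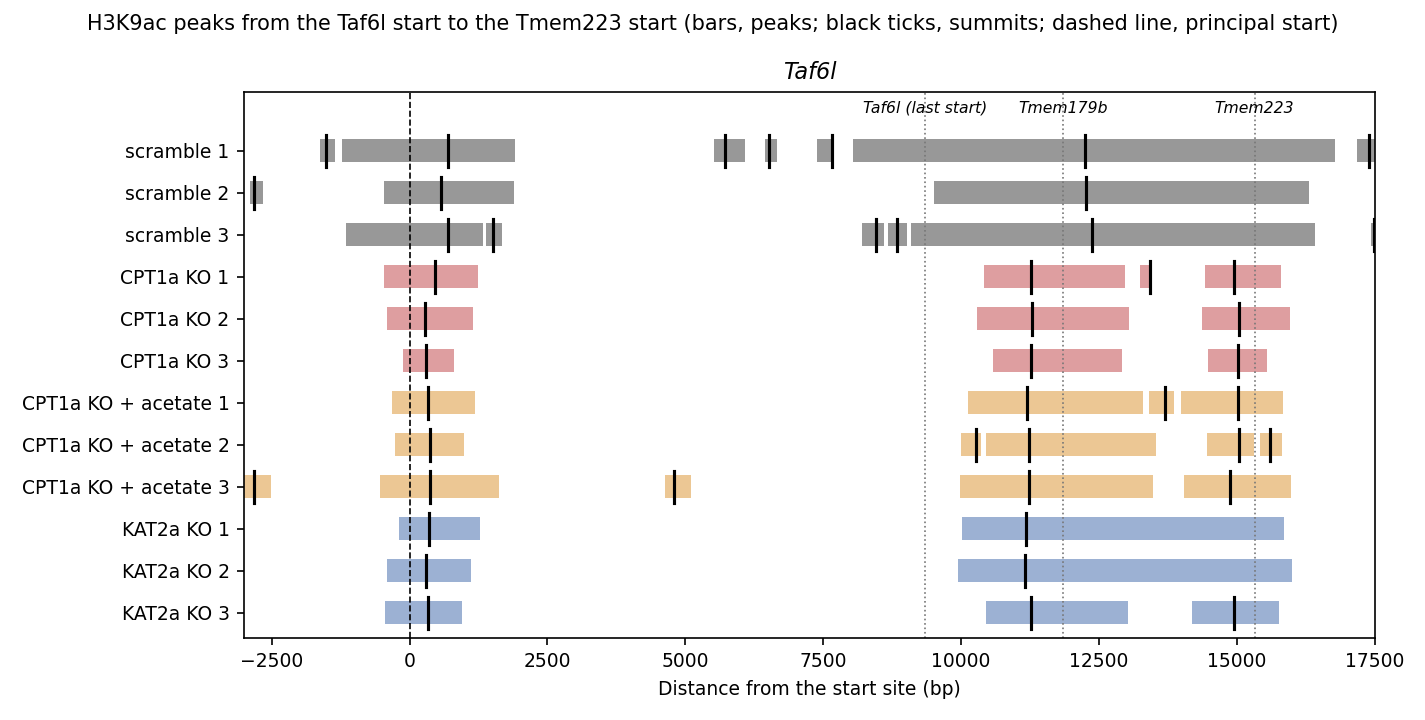
Peaks around Taf6l in the 12 libraries (one row each, coloured by group); the x axis is the distance from the principal start of Taf6l in bp, bars are peaks, and vertical lines are the starts of Taf6l, Tmem179b and Tmem223. The strong peak near 11849 bp, over the start of Tmem179b, is the one counted for Taf6l in 8 libraries.

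Counted over the 9 genes, ranks passed the test in few cases. In CPT1a KO against scramble, 1 of 9 was called (Kat2a, higher), beside 10.0% of all genes in either direction and 4.77% higher. In KAT2a KO against scramble it was 1 of 9 (Taf5l, lower), beside 4.41% of all genes and 2.71% lower. In CPT1a KO + acetate against scramble it was 0 of 9 by limma, beside 5.56% of all genes, and 2 members (Kat2a and Kat2b) and 2369 of all genes had an unadjusted p below 0.05. In CPT1a KO + acetate against CPT1a KO it was 0 of 9, beside 0.0464% of all genes, while 3 members (Kat2a, Tada3 and Taf5l) and 981 of all genes had an unadjusted p below 0.05. Of the 4 comparisons, 3 share the scramble libraries, and the CPT1a KO and acetate libraries each enter 2, so they are not independent. With 9 members, counts of 0 or 1 are near the share of all genes called and say nothing particular about the group.

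Members whose 3 and 3 ranks did not overlap were counted too. In CPT1a KO against scramble, 2 lay higher (Kat2a and Tada2b) and 1 lower (Taf5l), beside 15.5% and 15.3% of all genes. In KAT2a KO, 2 lay higher (Kat2a and Kat2b) and 1 lower (Taf5l), beside 14.3% and 15.0%. In CPT1a KO + acetate against CPT1a KO, 2 lay higher (Tada3 and Taf5l) and 1 lower (Kat2a), beside 5.47% and 8.69%. In CPT1a KO + acetate against scramble, 5 lay higher (Kat2a, Kat2b, Tada1, Tada2b and Tada3) and 0 lower, beside 14.9% and 17%. The median difference of the 9 was 7.94 points in CPT1a KO, -8.03 in KAT2a KO and 11.1 in acetate against scramble, and 3.19 in acetate against CPT1a KO, where all genes had medians of 0.22, 0.10, 0.15 and -0.48.

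**Figure D4:**
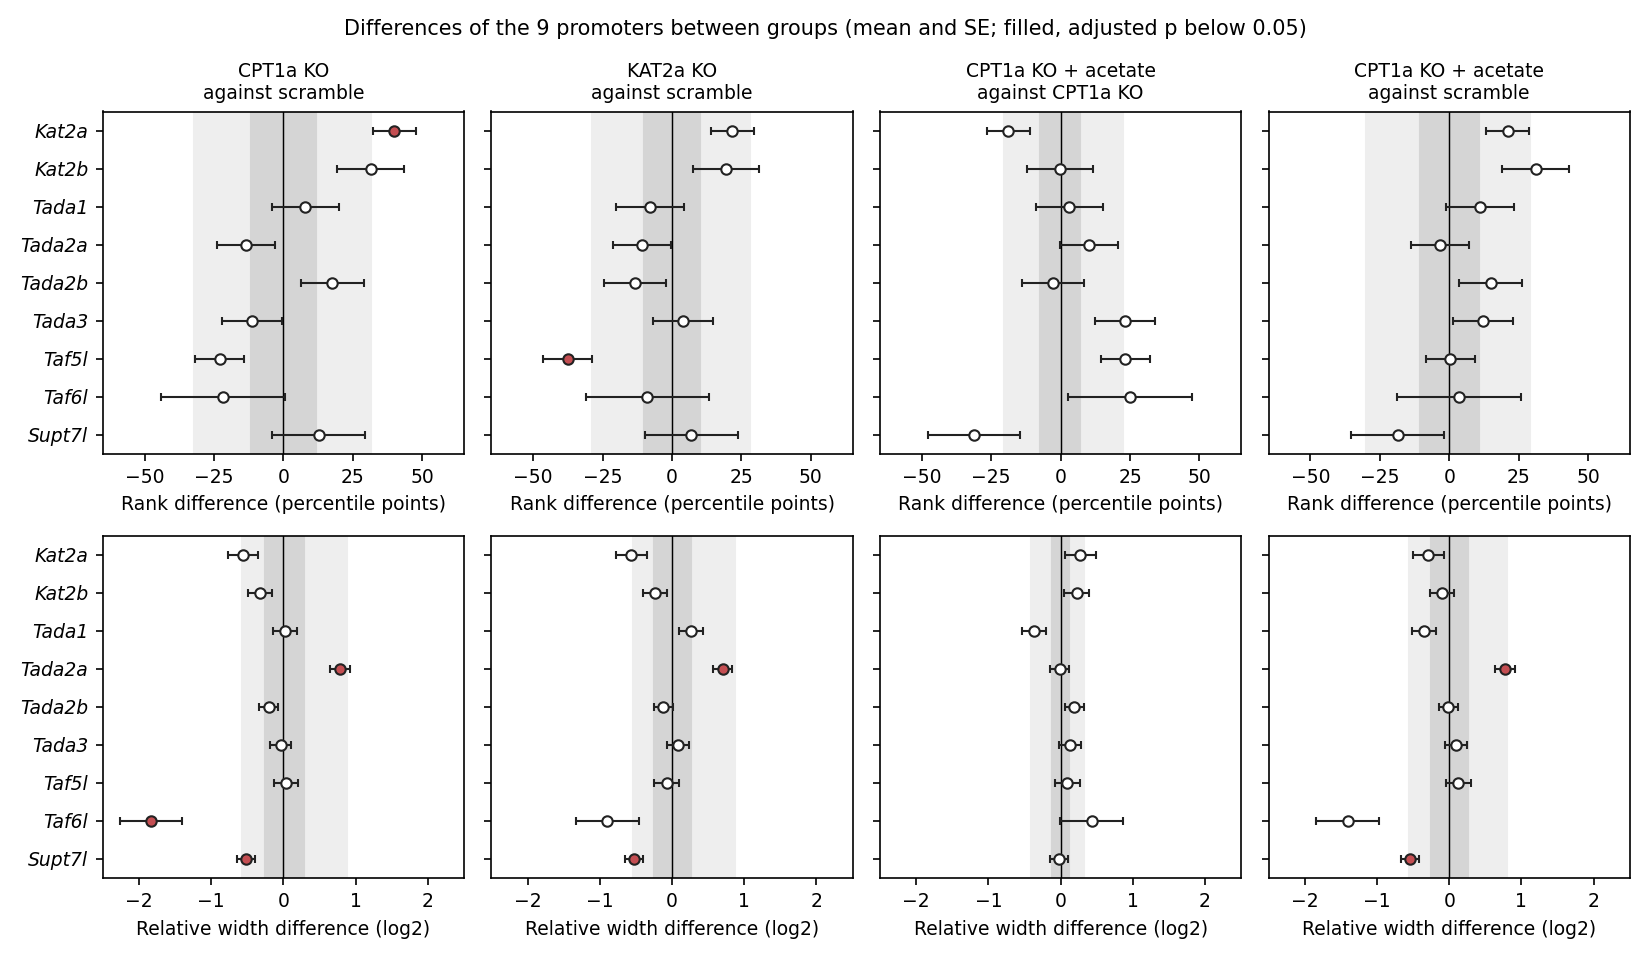
Mean difference of rank percentile (percentile points) and of relative log2 width for the 9 genes in the 4 comparisons; points are differences, bars are SE, filled points have an adjusted p below 0.05 in limma, and bands span the 25th to 75th and 5th to 95th percentiles of all 10777 genes. The called ranks of Kat2a (39.9) in CPT1a KO and Taf5l (-37.6) in KAT2a KO lie outside the wider band, as do ranks that were not called: Kat2b (31.1) in acetate against scramble, and Supt7l (-31.2), Taf6l (25.1), Taf5l (23.3) and Tada3 (23.2) in acetate against CPT1a KO.

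Width was called for 3 of 9 members in CPT1a KO against scramble (Tada2a wider, Taf6l and Supt7l narrower), beside 14.7% of all genes. It was called for 2 of 9 in KAT2a KO (12% of all genes) and 2 of 9 in CPT1a KO + acetate (10.0% of all genes) against scramble, Tada2a and Supt7l both times. Acetate against CPT1a KO gave 0 of 9 by limma, beside 0.00928% of all genes, with 1 member (Tada1) and 503 of all genes at an unadjusted p below 0.05. Centring mattered here. Without it the median gene was narrower than in scramble by 0.38 log2 units in CPT1a KO, 0.16 in KAT2a KO and 0.26 in CPT1a KO + acetate. The share of wider genes among those called went from 50.6%, 50.6% and 55.1% to 5.26%, 25.1% and 11.1%. Tada2a then kept its direction but not its call (0.41, 0.55 and 0.53, adjusted p = 0.0796, 0.0723 and 0.0636).

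**Figure D5:**
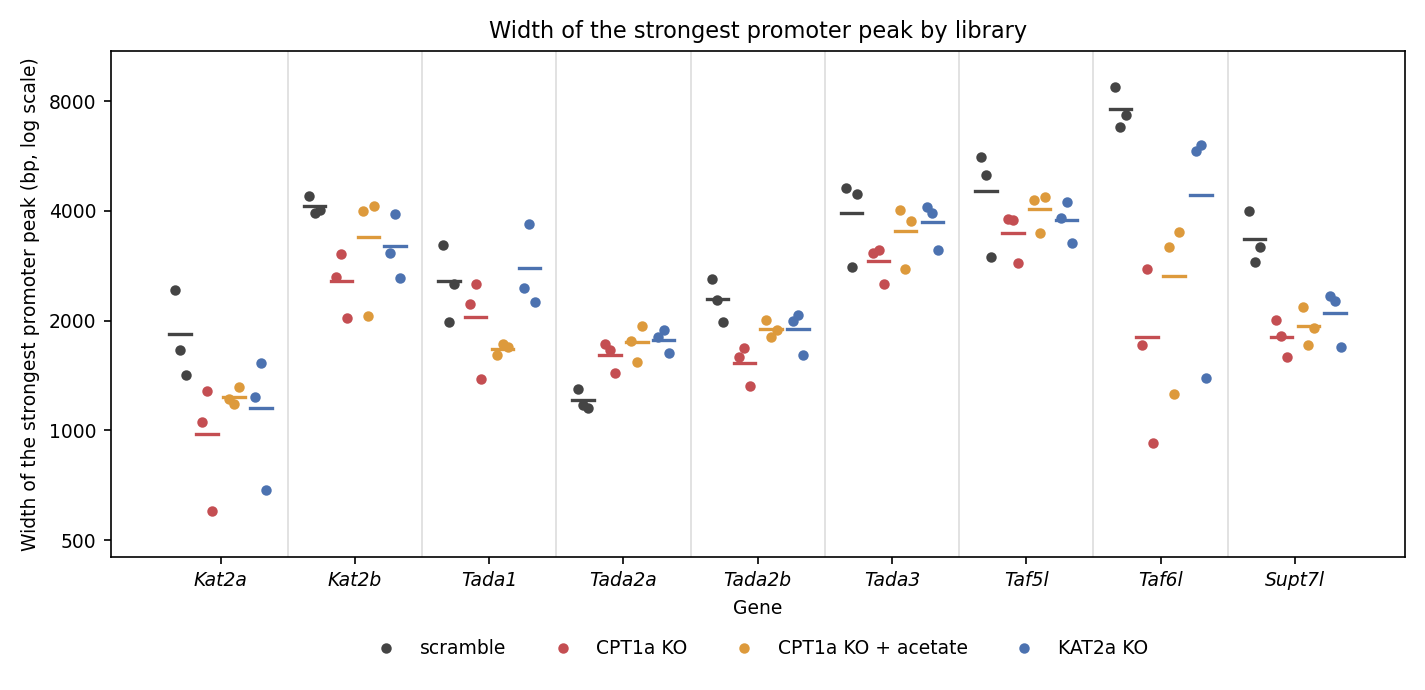
Width of the strongest promoter peak in bp (y axis, log2 scale) for the 9 genes in the 12 libraries; points are libraries, bars are arithmetic group means and colours are the 4 groups. Scramble points are the lowest for Tada2a (1151 to 1298 bp) and the highest for Supt7l (2893 to 3989 bp) and Taf6l (6798 to 8730 bp).

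The position of the summit moved for most genes. Measured from the principal start, the median summit of 10270 genes lay 540 to 585 bp downstream in scramble and 313 to 375 bp in the other libraries. Among the 9, Kat2a, Tada2a and Taf6l had summits less far downstream in CPT1a KO than in scramble without overlap (56.1% of all genes), and Tada3 and Supt7l had summits that lay farther in that direction, that is nearer to the start from upstream (10.9% of all genes). The same 3 and 2 members were found in KAT2a KO, beside 46.4% and 9.38%. In CPT1a KO + acetate, 2 members (Tada2a and Taf6l) were less far downstream and 1 (Tada3) farther than in scramble, beside 41.4% and 8.86%, and 1 (Tada3) was less far and 0 farther than in CPT1a KO, beside 3.92% and 17.1%.

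Genes whose ranks over the 12 libraries ran most like those of Kat2a were Unc119 (Pearson r = 0.96), Ninj1 (0.93), Otud3 (0.93), Vasn (0.92) and Samd1 (0.91). For Kat2b they were Ptpn14 (0.90), Btbd10 (0.90), Kdelr1 (0.89), Nfkbia (0.89) and Map1lc3b (0.88). These r describe 12 libraries that share depth and group, and the r between Kat2a and Kat2b was 0.64.

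Among the other SAGA subunits, 14 of 16 listed genes had a promoter peak in all 12 libraries, while Taf9b and Sf3b5 had none in any. Ranks rose in CPT1a KO against scramble for 2 of the 14, beside 10.0% of all genes called in either direction and 4.77% called higher. Atxn7l3, an adaptor of the deubiquitinase module, went from 54.8 ± 9.73 to 89.9 ± 5.31 (35.1 points, SE 7.55, adjusted p = 0.0110), and Usp22, the deubiquitinase, from 32.6 ± 24.8 to 77.1 ± 11.9 (44.5 points, SE 12.9, adjusted p = 0.0407). Other genes of that module were not called (Eny2 -12.4, Atxn7 10.1 points). Atxn7l3 also stood higher in CPT1a KO + acetate than in scramble (38.3 points, SE 7.55, adjusted p = 0.0103). No other subunit was called on rank, and the remaining comparisons gave 0 of 14 by limma, with 4 genes in KAT2a KO against scramble and 3 in acetate against CPT1a KO at an unadjusted p below 0.05. For width, 4 of 14 were called in CPT1a KO (Atxn7l2 and Atxn7l3 wider, Taf12 and Sf3b3 narrower), 5 in KAT2a KO (these and Eny2, narrower) and 2 in CPT1a KO + acetate against scramble (Atxn7l3 wider, Taf12 narrower). Acetate against CPT1a KO gave 0, and 1 of the 14 and 503 of all genes had an unadjusted p below 0.05. The shares of all genes called on width were 14.7%, 12%, 10.0% and 0.00928% in the same order. All 6 subunits of ATAC that SAGA lacks were tested. Their ranks gave 0 calls by limma, with 1 unadjusted p below 0.05, in KAT2a KO (beside 2243 of all genes). Their widths gave 1, Kat14, wider in CPT1a KO than in scramble by 0.50 log2 units (adjusted p = 0.0456).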

How the data were processed

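H3K9ac ChIPmentation was measured in 12 libraries of 4 groups with 3 replicates. The labels gave each library its group and number. The authors trimmed reads with fastq-mcf, aligned them to mm10 with BWA and removed duplicates with Picard, per the methods, whereas the submitters' processing notes name Bowtie2, SAMtools, deepTools and MACS2. Peaks were called by the authors on each library alone, and use of the inputs is not given in the sources used here. The *Drosophila* reference chromatin was not used here, so total H3K9ac was not measured. The labels and the methods give different numbers for the antibody.

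The deposited peak lists hold the fold enrichment of each peak, a ratio to the background around it, with the −log10 p-value and the −log10 q-value of the authors' caller. The lowest deposited −log10 q was 2.00. None of these is scaled between libraries, so levels were compared as ranks within a library. No read depth is stated. A calling depth was recovered from fold enrichment and p under the formulas of MACS2, from peaks with a −log10 p below 60. Peaks on chromosome Y (11 to 45 per list) were set aside.

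For each protein-coding gene the strongest peak overlapping (by at least 1 bp) the 1 kb to each side of any GENCODE vM21 start was ranked by fold enrichment, over the 10777 genes with such a peak in all 12 libraries. Ranks and centred log2 widths were tested with limma 3.58.1 (lmFit, contrasts.fit, eBayes with trend) in R 4.3.3 with Benjamini-Hochberg adjustment over all genes, and with two-sided exact permutation tests. Other steps used Python 3.11.15, numpy 2.4.6, pandas 2.3.3, scipy 1.17.1 and matplotlib 3.10.9. The scripts were tested on simulated data.

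Named genes were all 9 members, genes whose start shared a member's peak, the 5 genes most like Kat2a and Kat2b in rank, and the other SAGA and ATAC subunits that passed the test. The members and lists were chosen with earlier results of these data known. Alternatives were ranking by −log10 p, removal of a trend with GC content (50 bins; median promoter GC was 53.8% for the 9 genes and 50.3% for all), calling depth as a covariate, only libraries with a depth of at least 1.4, windows of 500 bp and 2 kb, a −log10 q of at least 5, other filters and scales, uncentred widths, merged peaks, covered bases, a replicate block, only the 2 groups compared, and leaving out each library. The principal start alone was added after the data were seen. RefSeq windows were read from GRCm38.p6.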

Additional observations from a re-analysis of the deposited data

How the results depend on the processing

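Over all members, comparisons and alternatives, 612 single rank results kept their direction and side of the threshold, 49 reversed, 13 gained and 10 lost the call, and for width the counts were 382, 49, 9 and 28. Most reversals were of differences far from a call, though with merged peaks and with covered bases a width of changed sign was called. The Kat2a call in CPT1a KO was kept in 6 of 6 fits without 1 library (32.6 to 45.4 points) and under 12 of 13 other settings, all but calling depth as a covariate. The Taf5l call in KAT2a KO was kept in 1 of 6 and under 9 of 13. It was lost with depth as a covariate (-40.0 points, adjusted p = 0.0621) and with deep libraries alone (-42.2 points, adjusted p = 0.0678). It was also lost with the replicate block (-37.6 points, adjusted p = 0.0507) and with only the 2 groups compared (-37.6 points, adjusted p = 0.0733). The Tada2a width calls were kept in 6 of 6 fits without 1 library, that of Taf6l in 3 of 6. Having 3 libraries a group and ranks in place of levels limit what could be detected. Except for merged peaks and the principal start, where the construction shows it, the cause of a change was not tested.

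Same-numbered libraries did not deviate together (correlations of -0.04 to 0.07), so the numbers share only a name. With the replicate block, rank calls numbered 1 in CPT1a KO and 0 in KAT2a KO, and 4 widths were called in CPT1a KO and 3 in KAT2a KO, Kat2a (narrower) being the added one in both (adjusted p = 0.0437 and 0.0492). The Taf6l width call in CPT1a KO was lost with depth as a covariate (-1.09).

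The number of members called on rank against scramble changed as follows. Ranking by −log10 p gave 3 in CPT1a KO (Kat2a, Kat2b and Taf5l), 2 in KAT2a KO (Kat2a and Taf5l) and 3 in CPT1a KO + acetate (Kat2a, Kat2b and Tada2b). Removing the GC trend gave 3 in CPT1a KO (with Kat2b at 39.9 and Taf5l at -34.4). Depth as a covariate gave 0 in CPT1a KO and 0 in KAT2a KO, and deep libraries alone gave 0 in KAT2a KO. The 500 bp window, in which the Tmem179b peak is counted for Taf6l in scramble alone, gave 2, 2 and 1 in CPT1a KO, KAT2a KO and CPT1a KO + acetate, with Taf6l at -47.7, -53.9 and -42.9. Normal scores gave 1 and the 2 groups alone gave 1 in CPT1a KO + acetate (Kat2a), and the 2 groups alone gave 0 in KAT2a KO. Leaving out 1 library gave 1 to 2 in CPT1a KO (2 without CPT1a KO replicate 2, where Kat2b was called at 44.6) and 0 to 1 in KAT2a KO. For width, covered bases gave 5 in CPT1a KO. These were Taf6l, Supt7l, Kat2a (-0.73), Tada1 (0.43) and a width whose sign had changed, while Tada2a lost its call (0.04, adjusted p = 0.693). Uncentred widths gave 0 in KAT2a KO and 1 in CPT1a KO + acetate, merged peaks gave 1 and 1, and the 2 groups alone gave 0 and 0. With merged peaks the call in KAT2a KO was neither Tada2a nor Supt7l, which both lost theirs, but a width whose sign had changed. In CPT1a KO + acetate it was Supt7l. Merged peaks gave 2 calls in CPT1a KO, Taf6l and a width whose sign had changed. Leaving out 1 library gave 1 to 3 calls in CPT1a KO (1 without scramble replicate 3 or CPT1a KO replicate 1), 1 to 2 in KAT2a KO (1 without scramble replicate 3 or any 1 KAT2a KO library) and 1 to 2 in CPT1a KO + acetate (1 without scramble replicate 3 or acetate replicate 1 or 3).

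Rank differences that changed sign were the following, against scramble unless CPT1a KO is named. With the GC trend removed, Tada1 had -3.54 in CPT1a KO, Tada3 -0.39 in KAT2a KO, Tada2a 6.11 and Taf5l -9.70 in acetate, and Tada2b 0.16 in acetate against CPT1a KO. With depth as a covariate, Tada3 had 6.61 and Taf6l 14.8 in CPT1a KO, Taf6l 17.4 in KAT2a KO, Taf5l -2.77 in acetate and Kat2b 0.068 in acetate against CPT1a KO. With deep libraries alone, Tada3 had 3.89 in CPT1a KO, Tada1 9.88 and Taf6l 15.1 in KAT2a KO, Tada2a 1.65 and Taf5l -0.35 in acetate, and Kat2b 8.93 in acetate against CPT1a KO. With the 2 kb window, Taf6l had 12.4 in CPT1a KO and 17.9 in KAT2a KO. By −log10 p, Tada1 had 2.5 and Tada2b 6.11 in KAT2a KO, Taf6l -12.4 in acetate, and Tada1 -2.81 and Tada2b 6.91 in acetate against CPT1a KO. Tada1 had -0.026 in normal scores in the last comparison. With the summit inside the window, Taf5l had -0.45 and Taf6l -2.43 in acetate, and with the principal start alone Taf6l had -0.98.

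Relative widths (log2) that changed sign were, without centring, Tada1 at -0.35 and Taf5l at -0.34 in CPT1a KO, Tada3 at -0.063 in KAT2a KO, Tada3 at -0.15 and Taf5l at -0.12 in acetate, and Tada2a at 0.11 and Supt7l at 0.10 in acetate against CPT1a KO. With covered bases they were Tada2b at 0.35 and Tada3 at 0.036 in CPT1a KO, Tada2b at 0.36 and Taf5l at 0.051 in KAT2a KO, Tada1 at 0.17 and Tada2b at 0.26 in acetate, and in acetate against CPT1a KO Kat2b at -0.031, Tada2a at 0.028, Tada2b at -0.093, Taf5l at -0.067 and Supt7l at 0.037. With merged peaks they were Kat2b at 0.44, Tada2a at -0.040, Tada2b at 0.43, Tada3 at 0.031 and Taf5l at -0.025 in CPT1a KO, Kat2b at 0.19, Tada2a at -0.14 and Tada2b at 0.71 in KAT2a KO, Kat2b at 0.33, Tada2a at -0.13, Tada2b at 0.51 and Taf5l at -0.0093 in acetate, and Kat2b at -0.11 in acetate against CPT1a KO. With depth as a covariate they were Taf5l at -0.013 in CPT1a KO and Tada2a at 0.00026 in acetate against CPT1a KO.

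Ranges over fits without 1 library spanned 0 for these ranks: in CPT1a KO Tada3 (-21.4 to 3.91), in KAT2a KO Supt7l (-4.52 to 25.2), Tada3 (-1.12 to 12.1), Tada1 (-17.8 to 10.0) and Taf6l (-23.5 to 15.4), in acetate Tada2a (-9.60 to 1.68), Taf6l (-8.94 to 24.7) and Taf5l (-1.77 to 2.76), and in acetate against CPT1a KO Kat2b (-13.5 to 9.36), Tada1 (-5.17 to 8.05) and Tada2b (-7.43 to 2.34). For widths they were, in CPT1a KO, Tada1 (-0.064 to 0.11), Tada3 (-0.19 to 0.11) and Taf5l (-0.19 to 0.22), in KAT2a KO Tada3 (-0.059 to 0.24) and Taf5l (-0.30 to 0.11), in acetate Tada2b (-0.10 to 0.072), Tada3 (-0.054 to 0.25), Taf5l (-0.10 to 0.31) and Kat2b (-0.21 to 0.10), and in acetate against CPT1a KO Tada2a (-0.077 to 0.079) and Supt7l (-0.11 to 0.064).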
